A study of Arabidopsis thaliana with 6 samples.

Results

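Along chromosome 5 of Arabidopsis thaliana, between the loci AT5G40450 and AT5G55000, most expressed genes read higher in rosettes of a double mutant than in the wild type, and 64 genes stayed under a difference of 0.4 on the log2 scale. Some of the 64 read slightly higher in the double mutant, some alike and some lower. The 64 genes were chosen by their values. Each is named alone by a probe set, reads at least 5.88 on the log2 scale as a mean over the 6 arrays, and has a double mutant mean less than 0.4 above the wild-type mean. They make up 16.3% of the 392 genes of the interval that reach this level, and the interval holds 753 measured genes among 13286 in all. COR27 (AT5G42900), the gene with the lowest difference of the 392, was left out by the rule. The difference between genotypes and the mean level chose the genes, so both are given below as description and without a p-value.

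The wild type was Columbia-0, and the double mutant carries lesions in AT3G03940 and AT5G18190, which the labels call a knockdown in one place and homozygous in another. All plants were 21 days old, grown in pots with 12 h of light and watered well, and each genotype had 3 arrays of total RNA from rosette leaves. No source used here gives the alleles, or says whether an array stands for 1 plant or several. The targeted genes encode MLK2 and MLK1, kinases of a small plant family, and by its title the series concerns phosphate on threonine 3 of histone H3 under osmotic stress. The interval lies on the same chromosome as MLK1 and does not contain it.

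Locus numbers of Arabidopsis follow the order of genes along a chromosome, so a run of locus numbers is a stretch of neighbouring genes. Each gene of such a stretch is still transcribed from its own promoter, and transcripts that follow sugar supply, hormones or the time of day can differ between plants whatever their neighbours do. Among the 9 genes under the threshold that have a symbol are a sugar transporter, a fermentation enzyme, a jasmonate transcription factor and a polymerase subunit. The other 55 have no symbol here. Whether sugar, hormones or the time of day bear on any of these genes was not tested. In whole rosettes, fewer cells of a type and less RNA per cell cannot be told apart.

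Array medians ran from 5.81 to 5.91 on the log2 scale. Pearson correlations across probe sets were 0.9932 to 0.9976 for arrays of 1 genotype and 0.9673 to 0.9696 for arrays of different genotypes. MLK1 itself read 7.92, 7.74 and 7.63 in the wild type against 3.42, 3.57 and 3.36 in the double mutant, where it lay under the lower quartile of each array; MLK2 was not analysed here. The control for 25S ribosomal RNA stood at 5.93 ± 0.76 in the wild type against 12.20 ± 0.12 in the double mutant (SD, n = 3). For actin and GAPDH the signal from the 5′ end, taken against that from the 3′ end, was higher in all 3 double mutant arrays, by 0.67 and 0.38. For the ubiquitin control it differed by -0.19, the other way, and not in every array. The part of these quantities in the differences below was not tested. A gene counts as measured here only where a probe set names it alone in the table used. Genes called not measured may still be on the array under probe sets without a name. Of 6 rosette leaf markers, RCA was the only one measured. It read 12.94 ± 0.05 in the wild type against 13.54 ± 0.03 in the double mutant (SD, n = 3), and it rose (difference 0.60, SE 0.08, limma adjusted p = 0.00021). Of the markers of other tissues, PYK10 of the root rose too, from 11.31 to 11.82 in the double mutant (limma adjusted p = 0.0015). The seed gene PAP85, dim in both genotypes, also rose, from 3.32 to 4.35 (limma adjusted p = 0.00021). CLV3 of the shoot meristem stood at 3.42 and 3.37 and did not pass, and no flower marker was measured. FAMA, of guard cells, stood at 7.43 and 7.26 and did not pass either.

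The 64 genes had a median difference of 0.13, with quartiles of -0.11 and 0.28 and a range from -1.30 to 0.39. The median was 0.84 over the 392 interval genes, 0.94 over the 327 at or above the threshold, and -0.01 over all 22746 probe sets. The genes were spread on both sides of 0. Of them 7 had a difference of -0.4 or lower, 12 lay between -0.36 and -0.07, 19 lay from 0 to under 0.2, and 26 from 0.2 up to the threshold. Against the wild-type mean, the median of the 64 genes was 0.14, 0.14 and 0.11 in the 3 double mutant arrays, so no single array set it. In the limma fit over all probe sets, 10 of the 64 genes were lower at an adjusted p of 0.05, where 18.7% of all probe sets were, and 15 were higher, where 19.8% were; 39 did not pass. The double mutant arrays lay wholly below the wild-type arrays for 12 of the genes (24.5% of all probe sets) and wholly above them for 25 (25.1%), or 37 either way (49.7%). Nothing is read from these counts, because the same difference chose the genes.

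**Figure D1:**
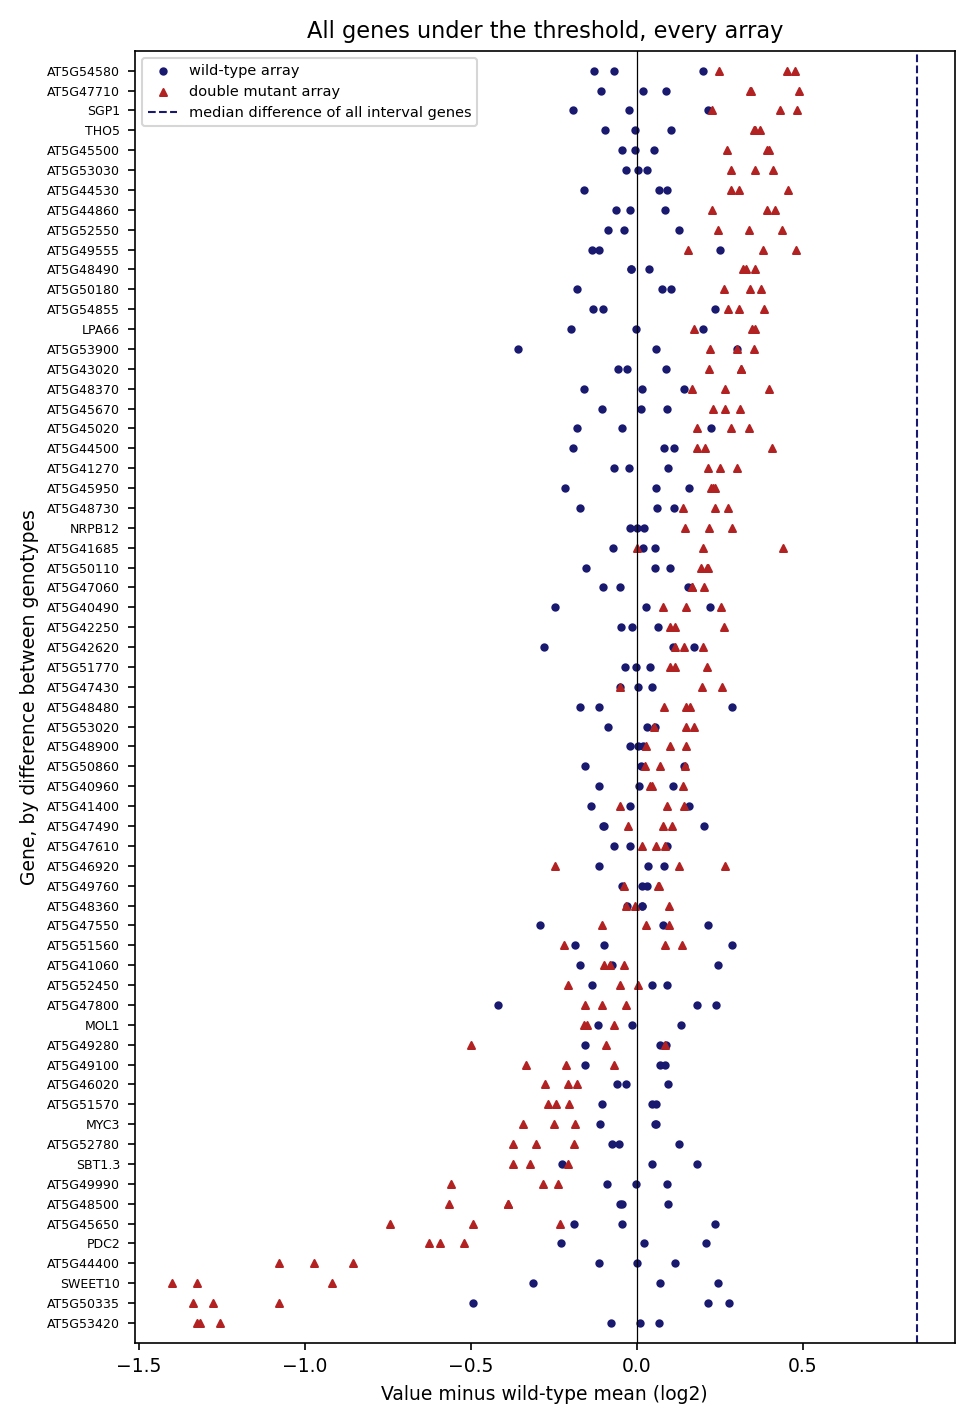
Each row is 1 of the 64 genes, ordered by its difference between genotypes; the x axis is the log2 value minus the wild-type mean of the gene, with circles for the 3 wild-type arrays and triangles for the 3 double mutant arrays. All rows lie left of the dashed line, the median difference of 0.84 of the 392 interval genes, and 4 rows at the bottom have every double mutant array well below the wild type.

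At the lower end, 4 genes stood apart, with differences of -0.97 or lower. AT5G53420 had the lowest difference, with values of 9.47, 9.32 and 9.41 in the wild type against 8.08, 8.14 and 8.08 in the double mutant. Its means were 9.40 ± 0.07 and 8.10 ± 0.04 (SD, n = 3), a difference of -1.30 (SE 0.09), and the groups did not overlap. The arrays of each genotype lay close together for this gene, which has no symbol in the tables used here. Its nearest expressed neighbours, AT5G53400 and AT5G53440, differed by 0.61 and 0.94 in the other direction.

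AT5G50335 read 9.49, 8.72 and 9.42 in the wild type against 8.13, 7.93 and 7.87 in the double mutant. The difference was -1.23 (SE 0.18), and wild-type replicate 2 was low against the other wild-type arrays, though still above all 3 double mutant arrays. The expressed genes on either side, AT5G50310 and AT5G50340, differed by 0.79 and 1.04. AT5G44400 read 8.05, 8.16 and 7.93 in the wild type against 6.97, 7.19 and 7.08 in the double mutant. Its difference was -0.97 (SE 0.10), and it sat between genes of the opposite kind. AT5G44380 before it differed by 1.58, and the next expressed gene was PDF1.2, which encodes a small antifungal protein induced by jasmonate and ethylene, with 1.99.

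SWEET10 (AT5G50790) was the lowest of the genes with a symbol. SWEET proteins are membrane transporters that let sugars pass down their gradient, and SWEET10 belongs to the group that carries sucrose. It read 6.61, 7.17 and 6.99 in the wild type against 5.60, 5.52 and 6.0 in the double mutant. The difference was -1.21 (SE 0.16), the arrays of each genotype were scattered, and the groups did not overlap. SWEET13 (AT5G50800), another sucrose carrier, is the next gene in the RefSeq order. It was not among the 64 genes because its mean lay under the level of 5.88, and it is named here after its values were seen. With means of 6.29 ± 0.11 and 4.55 ± 0.07 (SD, n = 3) it fell in the double mutant (difference -1.74, SE 0.10, limma adjusted p = 2.1e-07). The 2 genes are thus a pair of neighbours in the interval that were both lower in the double mutant. Among genes that reach the level of 5.88, those on either side of SWEET10, AT5G50740 and AT5G50840, differed by 0.55 and 1.53.

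Genes that share the SWEET symbol were followed across the genome; the family was chosen by its symbol after the members were known. Besides SWEET10, 13 SWEET genes were measured, of which 3 fell, 3 rose and 7 did not pass, with a median difference of 0.03. The 7 that did not pass were dim, with means of 4.17 or lower in both genotypes, and the median falls among them. SWEET11, which exports sucrose from leaf cells for loading into the phloem, fell from 11.68 ± 0.10 to 10.66 ± 0.05 (SD, n = 3; difference -1.02, SE 0.09, limma adjusted p = 6.5e-06). SWEET2, a vacuolar sugar transporter, rose instead, by 2.76 (SE 0.10, limma adjusted p = 1.9e-08). The SWEET genes that passed therefore had no common direction, and the dim ones say little about it.

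PDC2 (AT5G54960) encodes pyruvate decarboxylase, which takes the first step from pyruvate to ethanol in fermentation. It was the brightest of the 64 genes in the wild type, at 10.52, 10.08 and 10.33, and read 9.69, 9.79 and 9.72 in the double mutant. The difference was -0.58 (SE 0.11) and the groups did not overlap. It lies near the distal end of the interval, at place 390 of 392, between AT5G54940 and AT5G54970, which differed by 0.54 and 0.85. The remaining genes at -0.4 or lower have no symbol here. AT5G48500 read 6.94, 6.80 and 6.80 in the wild type against 6.46, 6.46 and 6.28 in the double mutant, a difference of -0.45 (SE 0.09). AT5G45650 read 8.70, 8.27 and 8.42 against 7.97, 8.23 and 7.72, a difference of -0.49 (SE 0.14), with double mutant replicate 2 close to the lowest wild-type array.

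**Figure D2:**
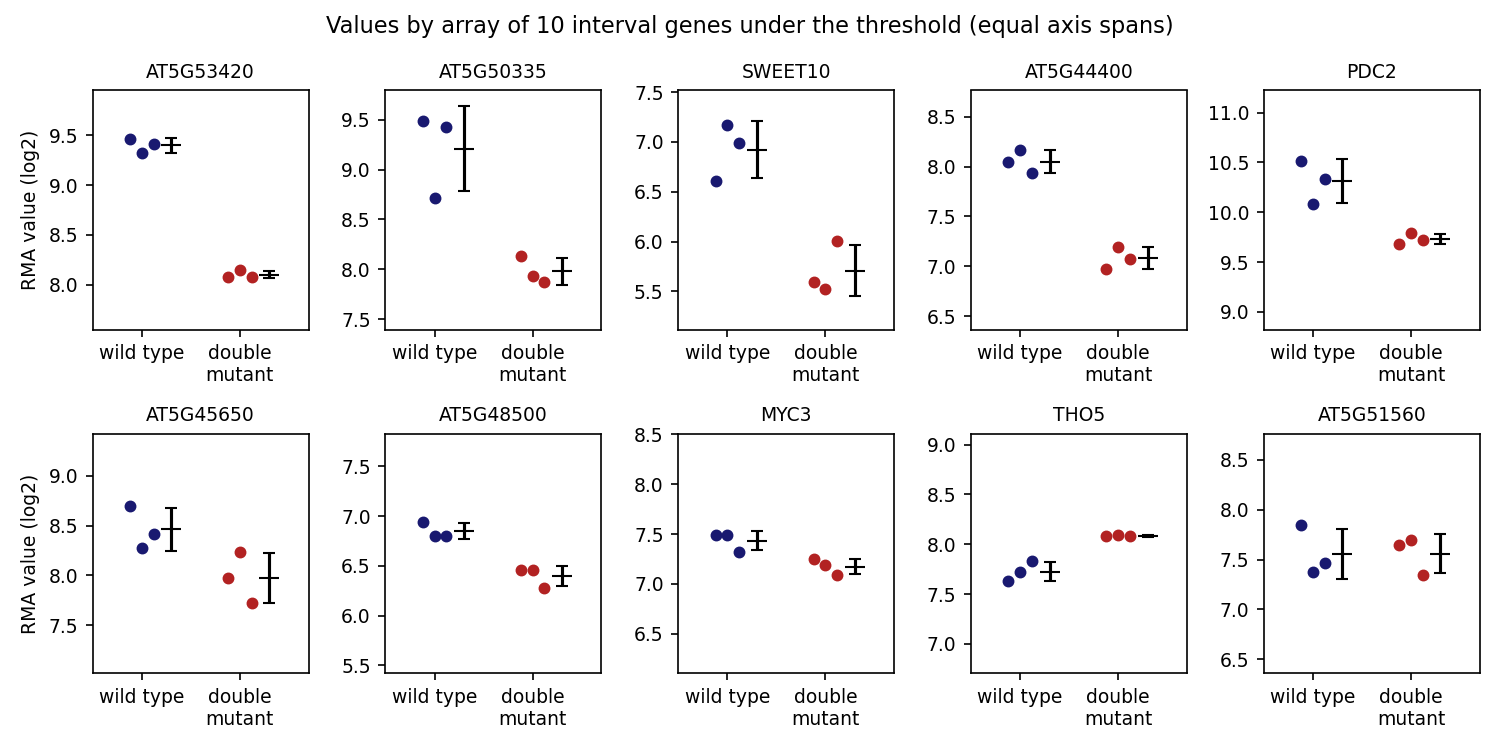
Log2 values by array for 10 of the 64 genes, wild type in blue and double mutant in red, with the mean and SD of 3 arrays as bars; every panel spans the same range on the y axis. The groups are far apart for AT5G53420, AT5G50335, SWEET10 and AT5G44400, closer for MYC3 and THO5, and overlap for AT5G51560.

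MYC3 and NRPB12 represent gene control among the 64 genes. MYC3 (AT5G46760) is a bHLH transcription factor that acts with MYC2 and MYC4 in jasmonate signalling and in the control of glucosinolate synthesis. It read 7.49, 7.49 and 7.32 in the wild type against 7.25, 7.19 and 7.09 in the double mutant, a difference of -0.26 (SE 0.09) without overlap. Its relative MYC4, outside the interval and the only other MYC gene measured under that symbol, fell from 7.01 ± 0.29 to 5.93 ± 0.22 (SD, n = 3; difference -1.08, SE 0.15, limma adjusted p = 0.0002). NRPB12 (AT5G41010) encodes a small subunit shared by several nuclear RNA polymerases. It read 8.58, 8.56 and 8.60 in the wild type against 8.79, 8.86 and 8.72 in the double mutant, a small difference of 0.22 (SE 0.09) with no overlap. Of 11 other subunit genes with such symbols, 2 rose, 2 fell and 7 did not pass. The 2 that rose, NRPC2 and NRPB6A, are the 2 of them that lie in the interval, with 0.52 (SE 0.09, limma adjusted p = 0.0011) and 0.66 (SE 0.09, limma adjusted p = 0.00017).

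The other genes with a symbol act in RNA handling, the chloroplast, signalling and protein cleavage. THO5 (AT5G42920), part of the THO complex that packs messenger RNA for export, read 7.63, 7.72 and 7.83 in the wild type against 8.08, 8.10 and 8.08 in the double mutant. The difference of 0.36 (SE 0.09) lies close to the threshold, with no overlap, and its neighbour on one side is COR27, which differed by -2.82. Of 4 other genes measured under symbols of the THO complex, 1 fell and 3 did not pass. LPA66 (AT5G48910), a pentatricopeptide repeat protein needed for editing a photosystem II transcript of the chloroplast, had means of 6.91 ± 0.20 and 7.20 ± 0.10 (SD, n = 3), which differed by 0.29 (SE 0.11) with overlap. LPA2, another photosystem assembly gene in the interval, rose by 1.02 (SE 0.11, limma adjusted p = 2.6e-05), so 2 LPA genes of the interval stood on different sides of the threshold.

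SBT1.3 (AT5G51750), a subtilisin-like protease, was bright in both genotypes, at 10.23, 9.82 and 10.09 in the wild type against 9.84, 9.67 and 9.73 in the double mutant. The groups overlapped by 1 wild-type array, and the difference was -0.30 (SE 0.11). Of 6 other genes measured under an SBT symbol, 1 rose and 5 did not pass. Subtilase genes without such a symbol in the tables used are not counted. Among the 5, SBT3.3, SBT4.13 and SBT5.4 were dim, with means of 3.93 or lower in both genotypes. MOL1 (AT5G51350), a receptor-like kinase that restrains growth of the vascular cambium, stood at 7.53 ± 0.13 and 7.40 ± 0.05 (SD, n = 3), a difference of -0.13 (SE 0.09) with overlap. SGP1 (AT5G54840), a small GTP-binding protein, had means of 6.72 ± 0.20 and 7.10 ± 0.14 (SD, n = 3), which differed by 0.38 (SE 0.12). Its relative SGP2, outside the interval, did not pass (0.21, SE 0.08, limma adjusted p = 0.074). THO5, MYC3 and MOL1 are named because they have a symbol, which was decided after their values were seen.

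Some genes read alike in both genotypes. The 6 smallest differences were 0.0004 for AT5G51560, 0.01 for AT5G47550, 0.02 for AT5G48360, 0.03 for AT5G49760, and 0.05 each for AT5G46920 and AT5G47610, with SEs of 0.09 to 0.14. AT5G49760 was bright and steady, at 8.98, 9.0 and 8.92 in the wild type against 9.03, 8.93 and 9.03 in the double mutant. AT5G51560 had the same mean of 7.56 in both genotypes and a spread of 0.25 and 0.19 (SD, n = 3) around it. For 27 of the 64 genes the arrays of the genotypes overlapped, and for 37 they did not, against 49.7% of all probe sets. Nothing is read from this either, as the same difference chose the genes. Overlap does not mean alike, since SBT1.3 overlapped with a difference of -0.30.

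Genes further from 0 are added here after their values were seen, and none of them has a symbol in the tables used. AT5G49990 read 7.29, 7.38 and 7.20 in the wild type against 7.06, 6.73 and 7.01 in the double mutant, a difference of -0.36 (SE 0.11) without overlap. AT5G52780 read 8.83, 8.63 and 8.65 against 8.33, 8.51 and 8.40, a difference of -0.29 (SE 0.10), also without overlap. The expressed genes beside the first, AT5G49960 and AT5G50000, differed by 0.93 and 0.48. Those beside the second, AT5G52750 and AT5G52810, differed by 0.68 and 1.95. On the other side of 0, AT5G45500 read 9.03, 9.13 and 9.07 against 9.35, 9.48 and 9.47, a difference of 0.35 (SE 0.09) that every array shows. For AT5G47800 and AT5G53900 the wild-type arrays were too far apart to place the gene well, with SDs of 0.36 and 0.33 (n = 3) and differences of -0.10 (SE 0.15) and 0.29 (SE 0.15).

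The 5 brightest of the 64 genes were PDC2, AT5G48490, AT5G46020, SBT1.3 and AT5G48480. AT5G48490 read 10.03, 10.08 and 10.03 in the wild type against 10.37, 10.37 and 10.40 in the double mutant, so its difference of 0.33 (SE 0.08) was far larger than its spread while under the threshold. AT5G46020 read 10.01, 9.99 and 10.14 against 9.86, 9.84 and 9.77, a difference of -0.22 (SE 0.09) without overlap. AT5G48480 differed by 0.13 (SE 0.12) and its groups overlapped. In the wild type the 64 genes ran from 5.83 to 10.31 with a median of 7.40, against a median of 7.29 for the 327 other interval genes. In the double mutant the medians were 7.54 and 8.21. The share of interval genes that lay under the threshold was 19.4% in the dimmest of 4 equal groups by mean level, then 17.3%, 14.3% and 14.3%, so the genes came from all levels. No value of the 64 genes lay under the lower quartile of its array. The rule already asks for a mean level well above these quartiles, so nothing is read from this. Each of the genes had 1 probe set that names it alone.

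The threshold cut through a continuous range. The genes just inside it were AT5G54580, AT5G47710 and SGP1, with differences of 0.39, 0.39 and 0.38. The genes just outside it were AT5G50130, AT5G47890 and AT5G52660, each with 0.41. Between 0.3 and the threshold lay 13 genes, and 23 more lay between the threshold and 0.5, while the SE of a difference was 0.08 to 0.18 for the 64 genes. When each array was left out in turn, 54 of the 64 genes met the rule every time. AT5G47710 shows what a gene at the border looks like: it read 6.98, 6.78 and 6.91 in the wild type against 7.23, 7.23 and 7.38 in the double mutant, with no overlap.

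The 64 genes were scattered through the interval. With the 392 genes in order, the first of the 64 was at place 3 and the last at place 390, and each of 10 equal parts of the order held 3 to 11 of them. The one with 11 ran from AT5G47620 to AT5G49210. The longest stretch with none was 36 genes, between AT5G43020 and AT5G44400. Of the 64 genes, 41 had no other of them as a next expressed neighbour. The remaining 23 lay in 11 runs, 10 of 2 genes and 1 of 3 genes. The run of 3, AT5G48480, AT5G48490 and AT5G48500, had differences of 0.13, 0.33 and -0.45, so its genes did not move alike. Within the pairs the signs also differed: AT5G45650 had -0.49 and AT5G45670 beside it 0.27, AT5G45950 had 0.23 and AT5G46020 had -0.22, and SBT1.3 had -0.30 and AT5G51770 had 0.14. AT5G51560 and AT5G51570 had 0.0004 and -0.24. The other pairs were positive throughout, with AT5G40960 and NRPB12 at 0.07 and 0.22, AT5G44860 and AT5G45020 at 0.34 and 0.27, AT5G48360 and AT5G48370 at 0.02 and 0.28, and AT5G48900 and LPA66 at 0.09 and 0.29. AT5G53020 and AT5G53030 had 0.12 and 0.35, and SGP1 and AT5G54855 had 0.38 and 0.32.

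The expressed genes next to the 64 were looked up on both sides. There were 128 neighbouring places, of which 24 (18.8%) held another of the 64 genes, near their share of 16.3% in the interval. With COR27 left out, the 96 distinct other neighbours had a median difference of 0.96, against 0.94 for all 327, and ranged from 0.41 to 2.65. The rule itself puts every one of these 96 at 0.4 or higher, so nothing is read from their level. The largest of these belonged to AT5G51390, next to MOL1. For 11 of the 64 genes the next expressed genes on both sides were at or above the interval median of 0.84. The share of all interval genes with such neighbours was not taken, so nothing is read from this count.

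**Figure D3:**
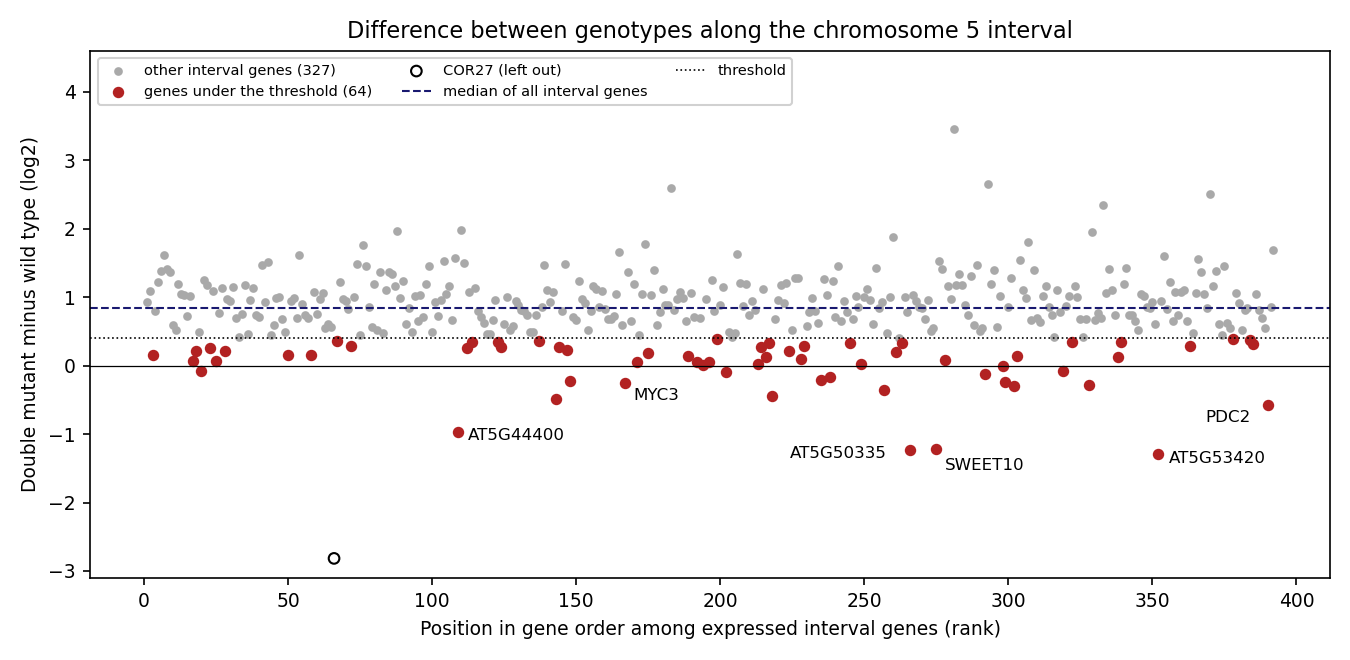
The x axis is the place of a gene among the 392 expressed interval genes, and the y axis its double mutant minus wild-type difference on the log2 scale. Red points are the 64 genes under the dotted threshold of 0.4, grey points the 327 others, the open circle is COR27, and the dashed line is the interval median of 0.84; red points occur along the whole order.

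Measured from the median of their own set, genes of the interval were spread much like genes elsewhere. The threshold lies 0.44 below the interval median, and 65 of the 392 genes (16.6%), COR27 included, lay further below it than that. Outside the interval, 799 of 5474 genes of the same level (14.6%) lay as far below their own median of -0.03, and the share was 13.9% to 15.9% on the single chromosomes. The quartiles around the median were -0.30 and 0.26 in the interval and -0.26 and 0.26 elsewhere. More than 1 below the median lay 4.08% of interval genes and 3.40% of genes elsewhere. At least 1.5 below it lay 5 interval genes (1.28%), namely COR27, AT5G53420, AT5G50335, SWEET10 and AT5G44400, against 1.3% elsewhere. The share under the threshold is thus near the share found elsewhere at the same distance, and nothing particular to the 64 genes is read from it. In absolute terms the sets differed, since 84.0% of genes elsewhere had a difference under 0.4, and 18.5% of them had -0.4 or lower against 2.04% in the interval.

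**Figure D4:**
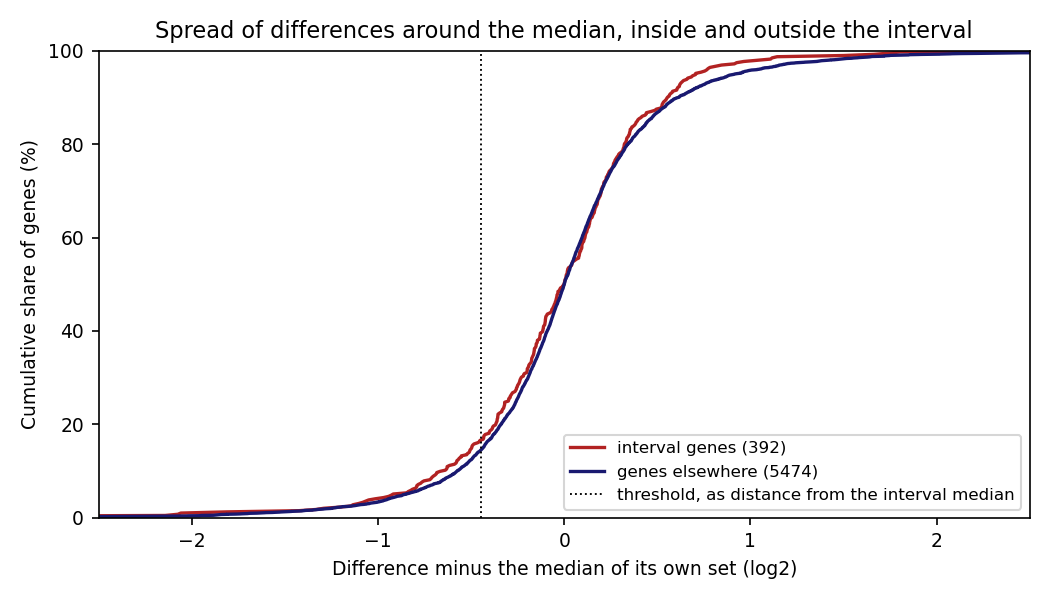
Cumulative share of genes in percent against the log2 difference minus the median of the set, for the 392 interval genes in red and 5474 genes elsewhere in blue. The curves lie close together along their length, and at the dotted line, 0.44 below the median, they read 16.6% and 14.6%.

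Arrays of one genotype varied about as much for the 64 genes as for the rest, a quantity the rule did not use. The median SD over 3 arrays was 0.13 in the wild type against 0.07 in the double mutant for the 64 genes. It was 0.14 and 0.08 for the 327 other interval genes, and 0.13 and 0.08 for genes of the same level elsewhere. In each of these sets the wild-type arrays were further apart than the double mutant arrays.

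None of the 64 genes was on the lists of interval genes with known roles. The lists cover cold and abscisic acid, heat, defence, light, phenylpropanoids and carbon metabolism, and of their 31 genes 7 were measured. COR27 is one of the 7 and is left out by the rule, and only 3 of the others, PDF1.2, HCT and PGD3, reach the level of 5.88 and could have been among the 64, so nothing is read from the absence. The 6 genes besides COR27 all rose, and so did all 327 interval genes at or above the threshold, so nothing is read from that either. The 6 include HCT, an enzyme of lignin synthesis, with 0.58 (SE 0.11, limma adjusted p = 0.0015), and PGD3, of the oxidative pentose phosphate pathway, with 1.14 (SE 0.12, limma adjusted p = 3.3e-05). COR27, induced by cold and active in the circadian clock, went from 7.30 ± 0.11 to 4.49 ± 0.13 (SD, n = 3). Of 8 evening clock and light output genes listed from the whole genome, GI and COR28 were measured, and both fell, with differences of -1.56 and -3.21.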

How the data were processed

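Labelled cRNA from rosette leaves was measured on 6 Affymetrix arrays, 3 of each genotype. The deposited values are log2 expression per probe set, made by the authors with RMA and limma under R 2.9.0, per the submitters' processing notes. RMA compresses large folds of dim genes. The authors' deposited table gives log2 differences, a score (moderated statistic and log odds), and p-values with adjusted p-values. No source here states the adjustment. The authors' log2 differences and calls were compared with those found here, and the largest gap between differences was 5.1e-08.

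Here 64 control probe sets were left out of 22810. Of the rest 503 name several genes, 8730 have no name in the table used, and 13513 name 1 gene, of which 13436 matched the RefSeq table of TAIR10.1, used for names and gene order only, since no source states a genome build. The probe set with the highest mean stood for a gene. The tests used limma 3.58.1 in R 4.3.3 on 22746 probe sets (lmFit, eBayes, two-sided, genotype only), with Benjamini-Hochberg adjustment and a threshold of 0.05. SEs are those of this fit. With 3 arrays a genotype the number of arrays limits the precision, and p-values reflect only how far these samples vary, which may be technical. On simulated data for 22746 probe sets with 200 changed, limma called 84 of 100 changes of 1 and 20 of 100 changes of 0.5. In the real data 38.5% of probe sets passed, far more than were changed in the simulation. The adjusted threshold is then easier to reach, so these shares do not give the share of real changes that would be called.

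The members and lists were chosen with earlier results of these data known. Genes were named by rule: differences of -0.4 or lower, the 6 smallest, the 5 brightest, the 3 nearest the threshold on each side, runs, and members of the lists. Function classes from descriptions and a promoter motif search were planned and not run, as neither text nor sequence was used here; 55 of the 64 genes have no symbol in the tables, and no role is given for them. Batches could not be examined, as no scan date or slide was used here. Python 3.11.15, pandas 2.3.3, numpy 2.4.6 and matplotlib 3.10.9 were used. The alternatives tried were the level floor, the threshold, the probe set rule, centring, each array left out, a replicate block, a filter on dim probe sets, another eBayes setting and the authors' table.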

Additional observations from a re-analysis of the deposited data

Results flagged for a closer look

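The 25S ribosomal RNA control, left out of all gene comparisons, read 6.26 higher on the log2 scale in the double mutant than in the wild type. Its wild-type values were 5.45, 6.81 and 5.53 and its double mutant values 12.19, 12.08 and 12.32, so the groups did not overlap. Its part in the differences of the 64 genes was not tested. Groups of 3 arrays are too small for a search for single outlying arrays.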

How the results depend on the processing

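The count of genes under the threshold depended most on the threshold, with 38 genes at 0.2 and 111 at 0.6 against 64 at 0.4, and their median difference was -0.037 and 0.339 against 0.13, which follows from how the sets are built. At a level floor of 5 or 7 there were 79 and 44 genes, and 61 with the arrays centred outside the interval, all of them among the 64. Leaving out each array in turn gave 61 to 68 genes, a median difference of 0.10 to 0.15, and 7 to 11 genes called lower against 10. The interval median was 0.817 without double mutant replicate 1 and 0.821 without replicate 2, and ran up to 0.864 over such fits. Of interval genes, 17.8% lay as far below the median as the threshold with a floor of 5, and 15.3% to 17.6% with an array left out; elsewhere the shares were 15.9% with a floor of 5, 13.9% after centring and 14.1% to 16.6% with an array left out. These alternatives for the shares were chosen after seeing the data. With the replicate number as a block, 9 of the 64 genes were called lower and 11 higher, against 10 and 15 without it; no same-numbered pair of arrays deviated together (r = -0.08, -0.10 and -0.16), so the numbers were not taken to pair the samples. The authors' deposited table calls 10 lower and 15 higher; 13 were lower with dim probe sets left out, and 13 with the trended robust eBayes. Over the 64 genes, none of 576 alternative differences moved by as much as the spread between arrays. Nothing is read from this, because these alternatives could not move a difference that far. Leaving out an array always shifts a group mean by less than the SD of the group. The block leaves a difference unchanged, and so does the probe set rule for genes with 1 probe set. Centring shifts all genes alike, for AT5G48490 from 0.335 to 0.356 against a spread of 0.037. Of the 576 differences, 13 had another sign, in 7 genes with a difference of 0.10 or smaller in size.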
